A study of Mus musculus with 12 samples.

Results

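The 10 genes described here mark or drive epithelial-mesenchymal transition (EMT): the epithelial genes Cdh1 and Epcam, the mesenchymal genes Cdh2, Vim and Fn1, and the transcription factors Snai1, Snai2, Zeb1, Zeb2 and Twist1. They were chosen by name, as the loci of the deposited transcript annotation that match each gene's reference transcripts. Each of the 10 had 1 locus, among 80012 counted loci, and all 10 passed the filter on low values that left 17944 loci for testing. In EMT, cells joined by E-cadherin (Cdh1) loosen their junctions, become motile and make N-cadherin (Cdh2), vimentin (Vim) and fibronectin (Fn1). Factors of the Snail and Zeb families bind E-box sequences in the control regions of epithelial genes and repress them. In the mouse embryo this happens at gastrulation, when epiblast cells pass through the primitive streak to become mesoderm and definitive endoderm, and Eomes, a T-box factor, is among the genes needed there.

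Poly(A) RNA was sequenced from 12 libraries of an EomesEGFP embryonic stem cell line of C57BL/6 background, in which an EGFP cassette sits at the start site of endogenous Eomes. The groups, of 4 libraries each, were the undifferentiated cells at day 0 (ESC), kept on mouse embryonic fibroblast feeders, and the EGFP-negative (Eo−) and EGFP-positive (Eo+) cells sorted at day 3 from embryoid bodies made in hanging drops. All libraries carry the reporter, so no group lacks it, and the replicates bear the numbers 1, 2, 5 and 6 in each group. The line is a single reporter line, and a sorted fraction is a mixture of cell types.

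Library depth was 648413022 to 837308168 counts over loci, so that 3 counts corresponded to 0.00354 to 0.00467 CPM (counts scaled to a common effective library size), and the 10 genes took 0.139% to 0.369% of a library's counts. RNA of Eomes, the gene that carries the reporter, followed the sort labels. Its means were 46.4 CPM in ESC, 137 CPM in Eo− and 527 CPM in Eo+. Summed levels of 7 pluripotency markers were 2800 to 3654 CPM in ESC, 1282 to 1640 CPM in Eo− and 536 to 824 CPM in Eo+. Summed levels of 8 nascent mesoderm markers were 51.2 to 234 CPM, 138 to 459 CPM and 1000 to 1831 CPM. Summed levels of 6 definitive endoderm markers were 10.6 to 21.7 CPM, 39.9 to 66.2 CPM and 514 to 783 CPM. In bulk libraries, fewer cells of a type and less RNA per cell cannot be told apart.

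Control regions were read from RefSeq promoter windows (GRCm38.p6, the same build as mm10), which hold 5 of the 10 genes in 8 windows. The E-box CAGGTG, which Snail and Zeb factors bind, was searched on both strands (CACCTG on the other strand) in the 250 bases before each start. It was found in 17.2% of the 32851 windows of the table, and at least 2 matches were found in 2.06%. Of the 5 genes with a window, Snai1 (1 match) and Epcam (2 matches) held it and Zeb2, Twist1 and Vim did not, and these windows are shown because Snai1 and Epcam moved in opposite directions between the sorted fractions. The matches are in capitals. The Snai1 window is chr2:167537945-167538194 on the plus strand, with the match beginning 126 bases before the start. The Epcam window is chr17:87635729-87635944 on the plus strand, ending where the authors' locus begins, with a match beginning 187 bases before the RefSeq start. Its other match, CAGGTG, begins 19 bases before that start and lies inside the authors' locus, which starts earlier than the RefSeq gene. A match describes the sequence and does not show binding.
Snai1: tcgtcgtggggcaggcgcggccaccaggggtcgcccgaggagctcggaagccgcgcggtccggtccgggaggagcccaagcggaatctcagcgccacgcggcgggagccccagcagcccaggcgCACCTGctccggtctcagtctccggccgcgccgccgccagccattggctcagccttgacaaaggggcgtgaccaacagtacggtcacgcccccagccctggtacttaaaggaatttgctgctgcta
Epcam: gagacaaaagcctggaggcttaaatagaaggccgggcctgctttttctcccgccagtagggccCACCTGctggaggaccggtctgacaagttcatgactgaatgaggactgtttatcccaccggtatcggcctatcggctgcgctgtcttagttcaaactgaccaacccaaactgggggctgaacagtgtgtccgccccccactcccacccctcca

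Between the sorted fractions, 8 of the 10 genes differed at an adjusted p of at most 0.05 (limma-voom, Benjamini-Hochberg adjustment over all loci tested), beside 47.7% of all loci tested. Cdh2, Fn1, Snai1, Zeb1, Zeb2 and Twist1 were higher in Eo+ (6 genes, beside 23% of all loci), and Cdh1 and Epcam were lower (2 genes, beside 24.7%). Vim and Snai2 were not called. These counts come from the fit without pairing. With the replicate block over all 12 libraries Vim was not called either (adjusted p = 0.0821). With the block over both fractions alone, chosen after seeing the data, 9 genes were called, Vim being the ninth, beside 57.9% of all loci. The median log2 fold change of the 10 genes was 1.65, beside -0.0151 over all loci. The libraries of both fractions did not overlap for 7 of the 10 genes, beside 45.9% of all loci. A change of at least 2-fold was called for 6 of the 10, beside 21.2% of all loci.

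From ESC to Eo+, 6 of the 10 genes were called, beside 71.9% of all loci tested. Cdh2, Fn1, Snai1, Zeb2 and Twist1 were higher in Eo+ (5 genes, beside 35.8%) and Snai2 was lower (1 gene, beside 36.2%). The 2-fold criterion kept 6, beside 38.2%, and the libraries did not overlap for 4 genes, beside 64.5%. From ESC to Eo−, 7 were called, beside 62.4% of all loci. Cdh1, Epcam and Cdh2 were higher in Eo− (3 genes, beside 31%) and Fn1, Vim, Zeb1 and Snai2 were lower (4 genes, beside 31.4%). The 2-fold criterion kept 3 of these, beside 28.4%, and the libraries did not overlap for 5, beside 55.9%. Against ESC, then, the share of the genes that was called lay near that of all loci. The comparisons share libraries, so they are not independent of each other.

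**Figure D1:**
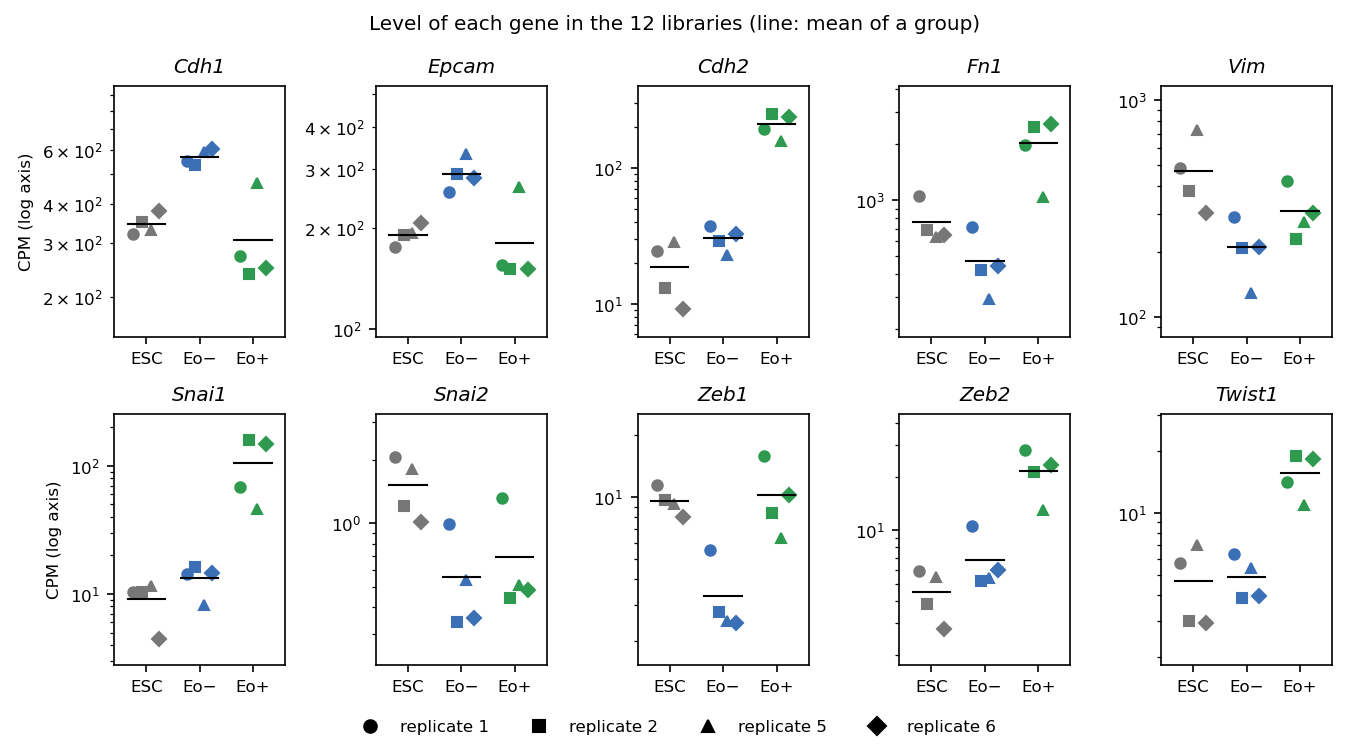
Level of each of the 10 genes in CPM (log axis) in the 12 libraries, by group, with marker shapes for the replicate numbers and a line at each group's mean. Cdh2, Snai1, Zeb2 and Twist1 were higher in the 4 Eo+ libraries than in every other library, while Cdh1 and Epcam were highest in Eo−, where only Epcam in Eo+ replicate 5 reached into the Eo− range.

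Cdh1 encodes E-cadherin, the adhesion molecule of epithelial adherens junctions (locus XLOC_068010, mm10 chr8:106603329-106670279, plus strand). Its level in replicates 1, 2, 5 and 6 was 321, 350, 331 and 381 CPM in ESC, 550, 536, 589 and 603 CPM in Eo−, and 273, 238, 470 and 249 CPM in Eo+. The Eo− libraries were higher than all others, and 3 of the 4 Eo+ libraries were lower than every ESC library, while Eo+ replicate 5 was higher than all of them. Cdh1 rose from ESC to Eo− by 0.72 ± 0.16 on the log2 scale (SE, n = 4 per group, limma adjusted p = 0.00137). It was lower in Eo+ than in Eo− by a log2 difference of -0.94 ± 0.16 (adjusted p = 0.000307), with the lower value in Eo+ in 4 of 4 replicate sets. From ESC to Eo+ the log2 change was -0.22 ± 0.16 (adjusted p = 0.229, 95% confidence interval -0.57 to 0.13). Without Eo+ replicate 5 that change was -0.45, with an adjusted p of 0.000163.

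Epcam, an epithelial cell adhesion molecule (chr17:87635945-87651155, plus strand), had nearly the same profile. It stood at 175, 190, 193 and 206 CPM in ESC, 256, 290, 331 and 281 CPM in Eo−, and 155, 151, 264 and 151 CPM in Eo+. Again Eo+ replicate 5 stood apart, inside the range of the Eo− libraries, while the other 3 Eo+ libraries lay below all ESC libraries. Epcam rose to Eo− by a log2 change of 0.60 ± 0.15 (limma adjusted p = 0.00318) and differed by -0.72 ± 0.15 between Eo+ and Eo− (adjusted p = 0.00138). The change from ESC to Eo+ was -0.12 ± 0.15 (adjusted p = 0.478, interval -0.45 to 0.20), and -0.32 without Eo+ replicate 5 (adjusted p = 0.00456). That library also had the lowest sum of nascent mesoderm markers in Eo+ (1000 CPM, others 1330 to 1831 CPM) and the highest sum of definitive endoderm markers (783 CPM, others 514 to 595 CPM), whose part in these values was not tested.

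Cdh2, or N-cadherin, replaces E-cadherin in many migrating mesodermal cells (chr18:16588877-16809246, minus strand). It was at 24.4, 13.1, 28.7 and 9.15 CPM in ESC, 37.4, 28.8, 22.9 and 32.8 CPM in Eo−, and 191, 248, 158 and 236 CPM in Eo+. The Eo+ libraries lay far above all others, while ESC and Eo− overlapped. Cdh2 rose 11.8-fold from ESC to Eo+ (log2 change 3.56 ± 0.28, limma adjusted p = 7.15e-08) and was 6.80-fold higher in Eo+ than in Eo− (2.77 ± 0.25, adjusted p = 2.01e-06). The rise from ESC to Eo− was smaller, 0.80 ± 0.30 on the log2 scale (adjusted p = 0.0337). This last call was lost with edgeR's quasi-likelihood test (0.69, adjusted p = 0.0555), with no filter (0.78, adjusted p = 0.0604), and when ESC replicate 2 or 6 or Eo− replicate 1, 2 or 6 was left out, over which the value was 0.52 to 0.82.

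Set against each other per summed exon length of the locus, in FPKM (CPM per kilobase of exon), Cdh2 was far below Cdh1 in ESC and Eo−. The geometric mean of Cdh2 over Cdh1 was 0.029 in ESC, 0.031 in Eo− and 0.408 in Eo+. In single libraries the log2 ratio was -6.15 to -4.29 in ESC, -5.45 to -4.64 in Eo−, and -1.29, -0.71, -2.33 and -0.85 in Eo+ replicates 1, 2, 5 and 6. Even in Eo+, then, Cdh1 RNA exceeded Cdh2 RNA per length in every library, with means of 64.8 ± 23.0 against 25.8 ± 5.12 FPKM (SD, n = 4).

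**Figure D2:**
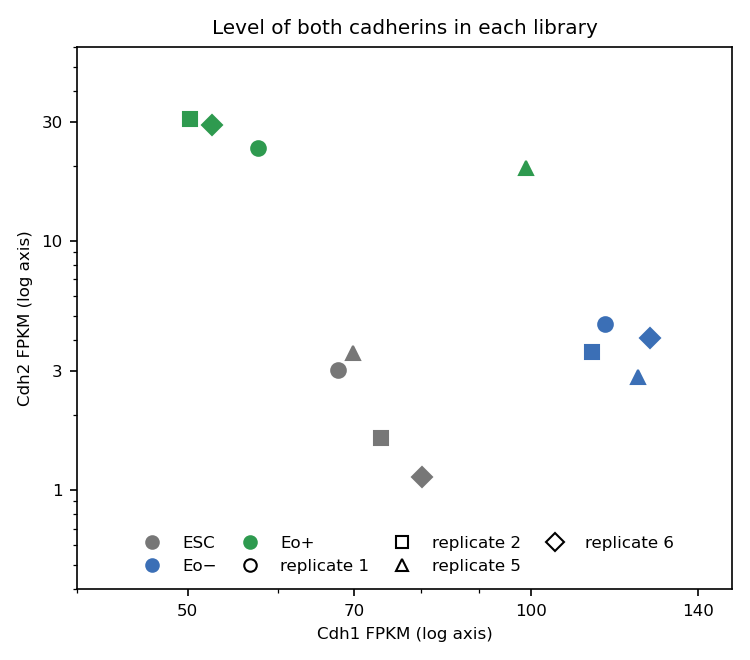
Cdh2 against Cdh1, both in FPKM on log axes, 1 point per library, coloured by group and shaped by replicate number. The Eo+ libraries are set apart by Cdh2 (mean 25.8 FPKM against 2.34 in ESC and 3.78 in Eo−), the Eo− libraries by Cdh1 (mean 120 FPKM), and Eo+ replicate 5 has the highest Cdh1 of its group.

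Fn1 encodes fibronectin, the matrix protein on which mesodermal cells migrate (chr1:71585356-71653200, minus strand). The libraries held 1055, 690, 635 and 650 CPM in ESC, 711, 421, 290 and 441 CPM in Eo−, and 1997, 2485, 1039 and 2587 CPM in Eo+. The lowest Eo+ library, replicate 5, overlapped only with ESC replicate 1, and Eo− replicate 5 was likewise the lowest of its group. Fn1 rose 1.37 ± 0.29 on the log2 scale from ESC to Eo+ (limma adjusted p = 0.000817) and was higher in Eo+ than in Eo− by 2.11 ± 0.30 (adjusted p = 7.5e-05). From ESC to Eo− it changed by -0.74 ± 0.30 (adjusted p = 0.0473), a call close to the threshold that was lost in 8 of 12 fits with 1 library left out (all 12 fits gave -0.97 to -0.54, adjusted p 0.0129 to 0.152). The 4 fits that kept it left out Eo− replicate 1 or Eo+ replicate 2, 5 or 6.

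Vim, the intermediate filament of mesenchymal cells (chr2:13572519-13582850, plus strand), did not follow Fn1 and Cdh2. It was at 485, 380, 727 and 301 CPM in ESC, 290, 207, 129 and 211 CPM in Eo−, and 426, 228, 275 and 303 CPM in Eo+. ESC spread over a wider range than either fraction and overlapped with Eo+, while all Eo− libraries were below all ESC libraries. Vim fell by 1.16 ± 0.28 on the log2 scale from ESC to Eo− (limma adjusted p = 0.00252). The change from ESC to Eo+ was -0.58 ± 0.27 (adjusted p = 0.0708, interval -1.17 to 0.01), and it was called under 6 of 21 alternatives, among them DESeq2's Wald test (-0.67, adjusted p = 0.0228) and the fits without ESC replicate 6, Eo− replicate 5 or Eo+ replicate 1 (-0.77, -0.58 and -0.75). Between the fractions the log2 difference was 0.57 ± 0.28 (adjusted p = 0.109, interval -0.03 to 1.18). Within the replicate sets it was 0.55, 0.14, 1.09 and 0.52, positive in 4 of 4, and with the set number as a replicate block over both fractions alone the difference was called (0.57, adjusted p = 0.00795), but not with the block over all 12 libraries (0.58, adjusted p = 0.0821). It was also called without Eo− replicate 1 (0.75, adjusted p = 0.0493).

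Snai1, a zinc-finger repressor of Cdh1 that nascent mesoderm needs to lose its epithelial form (chr2:167538195-167542814, plus strand), had the highest mean FPKM of the 5 transcription factors in Eo+. Its values were 10.3, 10.4, 11.5 and 4.48 CPM in ESC, 14.4, 16.3, 8.24 and 14.7 CPM in Eo−, and 68.1, 159, 46.0 and 148 CPM in Eo+. Every Eo+ library was above every other library, although replicates 1 and 5 were well under replicates 2 and 6. Snai1 rose by 3.40 ± 0.47 on the log2 scale from ESC to Eo+ (limma adjusted p = 1.88e-05) and differed by 2.83 ± 0.43 between Eo+ and Eo− (adjusted p = 0.00013). The change from ESC to Eo− was 0.58 ± 0.54 (adjusted p = 0.370, interval -0.59 to 1.75). The summed level of 10 visceral endoderm markers was 181, 30, 112 and 55.6 CPM in Eo+ replicates 1, 2, 5 and 6, so the libraries with the least Snai1 had the most of it. It was 92.7 to 101 CPM in ESC and 42.2 to 52.4 CPM in Eo−. Rhox5 alone was at 76.5 to 85.6 CPM in ESC, 20.7 to 32.7 CPM in Eo− and 4.95 to 7.36 CPM in Eo+, and so made up most of the sum in ESC. Of the 10 markers, 6 were higher (beside 23% of all loci) and 1 lower (beside 24.7%) in Eo+ than in Eo−. Without those that passed the filter through Eo+ alone, 3 of 7 were higher and 1 lower. The part of these markers in the Snai1 values was not tested.

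Snai2, the other Snail factor studied (chr16:14705852-14709395, plus strand), was scarce throughout and moved otherwise. It was at 2.06, 1.21, 1.81 and 1.01 CPM in ESC, 0.996, 0.341, 0.538 and 0.354 CPM in Eo−, and 1.32, 0.444, 0.509 and 0.483 CPM in Eo+. Replicate 1 was the highest library of each group. Snai2 fell by 1.54 ± 0.39 on the log2 scale to Eo− (limma adjusted p = 0.00376) and fell by 1.25 ± 0.39 to Eo+ (adjusted p = 0.00995). The fractions differed by 0.29 ± 0.43 (adjusted p = 0.60, interval -0.63 to 1.21), and leaving out Eo+ replicate 1 turned the sign (-0.09). In FPKM, Snai2 over Snai1 had a geometric mean of 0.135 in ESC, 0.031 in Eo− and 0.0053 in Eo+.

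Zeb1 and Zeb2 are paired zinc-finger and homeodomain repressors of Cdh1, and their profiles differed. Zeb1 (chr18:5591860-5775484, plus strand) was at 11.4, 9.67, 9.27 and 8.05 CPM in ESC, 5.55, 2.77, 2.49 and 2.45 CPM in Eo−, and 15.9, 8.40, 6.36 and 10.3 CPM in Eo+. The Eo− libraries were below all others, and ESC and Eo+ overlapped. Zeb1 fell by 1.61 ± 0.30 on the log2 scale from ESC to Eo− (limma adjusted p = 0.000392) and was higher in Eo+ than in Eo− by 1.63 ± 0.30 (adjusted p = 0.000605). Between ESC and Eo+ the log2 difference was 0.02 ± 0.26 (adjusted p = 0.944, interval -0.53 to 0.58), with a sign that depended on the libraries kept.

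Zeb2 (chr2:44983577-45117490, minus strand, in a locus that also holds the microRNA gene Mir5129) was at 5.93, 3.87, 5.47 and 2.80 CPM in ESC, 10.5, 5.18, 5.41 and 5.94 CPM in Eo−, and 28.2, 21.3, 13.0 and 23.3 CPM in Eo+. All Eo+ libraries exceeded all others. Zeb2 rose by 2.24 ± 0.30 on the log2 scale from ESC to Eo+ (limma adjusted p = 1.4e-05) and was higher in Eo+ than in Eo− by 1.67 ± 0.28 (adjusted p = 0.000286), while the change to Eo− was 0.57 ± 0.34 (adjusted p = 0.158, interval -0.16 to 1.31). With the replicate number as a block over all 12 libraries this last change was called (0.59, adjusted p = 0.0318). In FPKM the geometric mean of Zeb2 over Zeb1 was 0.261 in ESC, 1.19 in Eo− and 1.23 in Eo+. The ratio was above 1 in all 8 libraries of the fractions and below 1 in all 4 ESC libraries. In the fractions its log2 value was only 0.03 to 0.54. Whether it passes 1 there depends on the lengths used, 20390 bp for Zeb2 and 11710 bp for Zeb1, which merge the exons of all assembled transcripts.

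Twist1, a basic helix-loop-helix factor of mesoderm and neural crest (locus chr12:33890414-33959838, plus strand, begun by 1 assembled transcript upstream of the annotated gene), was at 5.70, 3.0, 7.0 and 2.92 CPM in ESC, 6.34, 3.84, 5.43 and 3.95 CPM in Eo−, and 14.1, 19.0, 11 and 18.4 CPM in Eo+. The Eo+ libraries lay above all others and ESC and Eo− overlapped. It rose by 1.80 ± 0.27 on the log2 scale to Eo+ (limma adjusted p = 4.47e-05) and was higher in Eo+ than in Eo− by 1.67 ± 0.27 (adjusted p = 0.000212). From ESC to Eo− the change was 0.13 ± 0.31 (adjusted p = 0.727, interval -0.54 to 0.81).

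**Figure D3:**
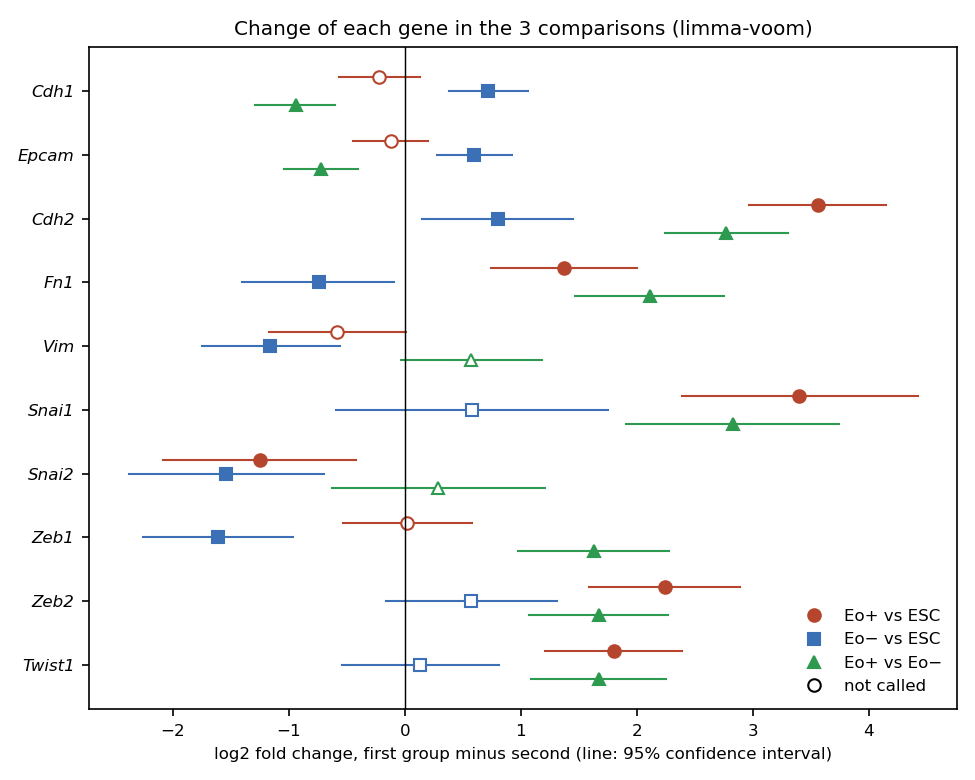
Log2 fold change of each gene in the 3 comparisons (limma-voom), with 95% confidence intervals as lines, filled markers for called changes and open markers for the rest. Cdh2, Snai1, Zeb2 and Twist1 have both Eo+ comparisons to the right of 0, whereas Cdh1, Epcam, Fn1 and Zeb1 have changes from ESC of opposite sign in Eo− and in Eo+, except that those of Cdh1, Epcam and Zeb1 to Eo+ were not called.

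Ordered by mean FPKM, Vim led in ESC (193 ± 75.3), followed by Epcam (76.1 ± 4.99) and Cdh1 (72.9 ± 5.54), whose libraries overlapped, and by Fn1 (47.7 ± 12.6). In Eo−, Cdh1 (120 ± 6.62), Epcam (115 ± 12.5) and Vim (85.1 ± 26.9) led, each overlapping with the next. In Eo+ the first 5, Fn1 (128 ± 44.5), Vim (125 ± 34.5), Epcam (71.9 ± 22.2), Snai1 (65.0 ± 35) and Cdh1 (64.8 ± 23.0), overlapped with their neighbours in the order. Among the tested protein-coding loci, Snai1 stood at percentile 59.8 of FPKM in ESC and 95.2 in Eo+, and Cdh2 at percentile 43.2 and 86.8. Zeb1, Zeb2 and Snai2 held the last 3 places in every group, at 0.222 to 1.05 FPKM.

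The genes whose log2(CPM + 0.1) was most like that of a member over the 12 libraries are given as a description. The libraries fall into 3 groups, so these values mostly reflect group means. Cdh1 and Epcam were each other's nearest among 11273 protein-coding loci (r = 0.976), followed for Cdh1 by Tmem30b (0.975) and Kif5c (0.968). Cdh2 was most like Pcdh7 (0.994), Cyp26a1 (0.991) and Lhx1 (0.990), and Snai1 most like Pid1 (0.991), Arl4d (0.988) and Wnt2b (0.988). For Twist1 the list was Pdik1l (0.976), Man1a (0.975) and Cdh11 (0.970). For Zeb1, Eea1 (0.973), Ncam1 (0.960) and Tbx3 (0.960) came first, for Zeb2 Bmi1 (0.988), Strn (0.986) and Arhgap36 (0.986), for Fn1 Mast4 (0.968), Spred1 (0.967) and Slc6a6 (0.964), for Vim Filip1l (0.937), Dcbld1 (0.930) and Cd38 (0.926), and for Snai2 Ate1 (0.946), Lyst (0.945) and Tab3 (0.942).

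Several of these genes have a transcript on the opposite strand beside their start. A 2-exon locus without a reference match, XLOC_032959 (chr18:16809449-16812508, plus strand), begins 203 bp from the 5′ end of Cdh2 and points away from it. It averaged 0.0221 CPM in ESC, 0.0486 CPM in Eo− and 0.267 CPM in Eo+, with ranges of 0.00301 to 0.0607 CPM, 0.0148 to 0.0851 CPM and 0.214 to 0.311 CPM, so the Eo+ libraries lay above all others. It passed the filter through Eo+ alone (0.135 FPKM, against 0.0111 in ESC and 0.0245 in Eo−), which favours a rise in Eo+, and no test is given for it. The Zeb2os locus (chr2:45110070-45114221, plus strand), which overlaps Zeb2 and holds 3 small annotated genes as well, rose from 0.188 CPM in ESC to 0.553 CPM in Eo− and 1.40 CPM in Eo+, with all 3 differences called (1.6 ± 0.30, 2.93 ± 0.28 and 1.34 ± 0.23 for Eo− over ESC, Eo+ over ESC and Eo+ over Eo−). A single-exon locus 166 bp from the 5′ end of Cdh1 (XLOC_069667), not tested, was at 0.111 CPM in ESC, 0.201 CPM in Eo− and 0.130 CPM in Eo+. Locus XLOC_000883, which overlaps the start of Fn1, was at 0.644, 0.519 and 0.558 CPM and was called in no comparison (log2 -0.21 ± 0.21, -0.34 ± 0.21 and 0.13 ± 0.21).

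The gene lists that follow are read beside the share of all loci called, which was 47.7% between the fractions, 71.9% from ESC to Eo+ and 62.4% from ESC to Eo−. With at least a 2-fold change these shares were 21.2%, 38.2% and 28.4%. Of 8 classical cadherins tested, Cdh1 and Cdh2 among them, 5 were higher and 2 lower in Eo+ than in Eo−, 6 were higher and 1 lower in Eo+ than in ESC, and 5 were higher in Eo− than in ESC (3 without ESC replicate 6, and 2 with at least a 2-fold change). Of the 8, Cdh8 passed the filter through Eo+ alone, which favours a rise there. Without it, 4 of 7 were higher and 2 lower in Eo+ than in Eo−, and 5 higher and 1 lower in Eo+ than in ESC. In Eo− against ESC, 5 of the 7 were higher and 0 lower. Cdh11, a mesenchymal cadherin, was at 9.94, 2.56, 7.88 and 2.48 CPM in ESC, 9.14, 5.52, 3.78 and 4.29 CPM in Eo−, and 122, 151, 50.9 and 126 CPM in Eo+. It rose by 4.44 ± 0.50 on the log2 scale from ESC to Eo+ (limma adjusted p = 2.65e-06). Cdh6 rose from 0.658 to 8.30 CPM. Cdh3, the P-cadherin of epithelia, fell from 22.1 to 9.01 CPM between ESC and Eo+ (-1.31 ± 0.16, adjusted p = 4.75e-06) and was at 18.8 CPM in Eo−. Cdh5, the cadherin of endothelium, averaged 0.331 CPM in ESC. In replicates 1, 2, 5 and 6 it was at 39.4, 6.53, 2.85 and 6.23 CPM in Eo− and at 17.1, 1.34, 2.83 and 3.30 CPM in Eo+, so replicate 1 was the highest of each fraction, and both rises from ESC were called. Of 5 catenins, which tie cadherins to actin, Jup (plakoglobin) fell from 181 CPM in ESC to 97.5 CPM in Eo− and 65.7 CPM in Eo+ (called in all 3 comparisons), and Ctnnb1 rose from 672 to 790 CPM in Eo+ (0.23 ± 0.05, adjusted p = 0.00162). In Eo−, Ctnna1 was lower than in ESC (318 against 421 CPM). Ctnna2 averaged 1.90 CPM in Eo− and 0.844 CPM in ESC, but it passed the filter through Eo− alone, which favours a rise there.

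Of 23 genes of epithelial junctions and polarity, 16 were higher and 2 lower in Eo− than in ESC (median log2 change 0.74), and 15 were higher and 4 lower in Eo+ than in ESC (median 0.64). Between the fractions, 11 were lower and 4 higher in Eo+ (median -0.33). With at least a 2-fold change, 9 were higher and 0 lower in Eo− than in ESC (28.4% of all loci), 8 higher and 3 lower in Eo+ than in ESC (38.2%), and 1 higher and 2 lower in Eo+ than in Eo− (21.2%). Eo+ replicate 5 was the highest of the Eo+ libraries for 19 of the 23 genes, and without it 14 were lower and 3 higher in Eo+ than in Eo−. Rab25, a GTPase of epithelial recycling endosomes, rose from 4.18 CPM in ESC to 42.1 CPM in Eo− and 17.8 CPM in Eo+, and Crb3, of the apical Crumbs complex, from 7.82 CPM in ESC to 30.4 CPM in Eo− and 17.1 CPM in Eo+. Dsp (desmoplakin) was at 29.6 CPM in ESC, 27.1 CPM in Eo− and 92.9 CPM in Eo+ (Eo+ over Eo− 1.82 ± 0.24, limma adjusted p = 4.3e-05), and Dsc2 at 4.53, 10.1 and 20.8 CPM. The other desmosomal genes of the list, given after their values were seen, were Pkp2, which was lower in Eo+ than in Eo− (33.9 against 54.8 CPM, log2 difference -0.74 ± 0.16, limma adjusted p = 0.0018), and Dsg2, which was not called (0.29 ± 0.14, adjusted p = 0.104). Llgl2, a polarity gene, fell in both fractions, from 82.8 CPM to 41.7 CPM in Eo− and 33.9 CPM in Eo+. The tight junction gene Marveld3 averaged 12.8 CPM in Eo−, against 5.67 CPM in Eo+.

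Of 10 regulators of the epithelial state, 8 were lower and 1 higher in Eo+ than in ESC, 5 lower and 2 higher in Eo− than in ESC, and 5 lower and 1 higher in Eo+ than in Eo−. Klf4, which is also a pluripotency factor, fell from 188 CPM in ESC to 9.20 CPM in Eo− and 9.37 CPM in Eo+, and Klf5 from 132 CPM to 16.2 CPM in Eo− and 14.1 CPM in Eo+. Grhl2, a direct activator of Cdh1, averaged 36.2 CPM in Eo−, against 11 CPM in Eo+ (-1.75 ± 0.16, limma adjusted p = 2.22e-06), and Grhl1 at 7.93, 3.64 and 0.852 CPM in ESC, Eo− and Eo+. Esrp1, a splicing factor of epithelial isoforms, rose from 64.6 CPM to 116 CPM in Eo− and 87.6 CPM in Eo+. Ovol2, a repressor of Zeb1, rose from 3.12 to 5.80 CPM in Eo− and averaged 5.11 CPM in Eo+, where it was not called against ESC (limma adjusted p = 0.0502).

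Among 13 tested transcription factors linked to EMT beyond the 10 genes, 10 were higher and 2 lower in Eo+ than in ESC, 7 higher and 3 lower in Eo− than in ESC, and 9 higher and 1 lower in Eo+ than in Eo−. The list holds Eomes itself, on which the sort rests. Mesp1 (0.385 CPM in ESC, 5.82 CPM in Eo− and 134 CPM in Eo+) and Gsc (2.82, 3.38 and 58.7 CPM), factors of nascent mesoderm and of anterior mesendoderm, had the largest rises to Eo+ of the list. Msgn1 rose from 2.29 CPM in ESC to 16.1 CPM in Eo− and 15.7 CPM in Eo+. Twist2 fell from 1.5 CPM in ESC to 0.403 CPM in Eo−.

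Of 18 genes of mesenchymal matrix, cytoskeleton and proteolysis, 6 were higher and 9 lower in Eo+ than in ESC (median log2 change -0.59), and in Eo− against ESC 1 was higher and 12 lower (median -1.40). In Eo+ against Eo−, 8 were higher and 1 lower (3 and 1 with at least a 2-fold change). With the replicate block over both fractions alone, chosen after seeing the data, 13 were higher and 1 lower, beside 57.9% of all loci. Col3a1, Lox and S100a4 passed the filter through ESC alone, where they are high, which favours a fall from ESC. The medians against ESC include them. Without them, in the fit without pairing, 6 were higher and 6 lower in Eo+ than in ESC, and 1 higher and 9 lower in Eo− than in ESC. In Eo+ against Eo−, 8 were then higher and 0 lower. Mmp14, a membrane metalloprotease, rose from 49.6 CPM in ESC to 154 CPM in Eo+ (1.64 ± 0.12, limma adjusted p = 5.51e-08), Mmp2 rose from 23.8 CPM in ESC to 37.4 CPM in Eo− and 49.9 CPM in Eo+, and Itga5, a chain of the fibronectin receptor, averaged 42.5 CPM in Eo−, against 122 CPM in Eo+ (1.52 ± 0.16, adjusted p = 8.06e-06). Col3a1 was at 11.9 CPM in ESC, 0.390 CPM in Eo− and 0.0602 CPM in Eo+, Lox at 26.8, 0.178 and 0.161 CPM, and S100a4 at 11.9, 0.0104 and 0.00745 CPM.

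**Figure D4:**
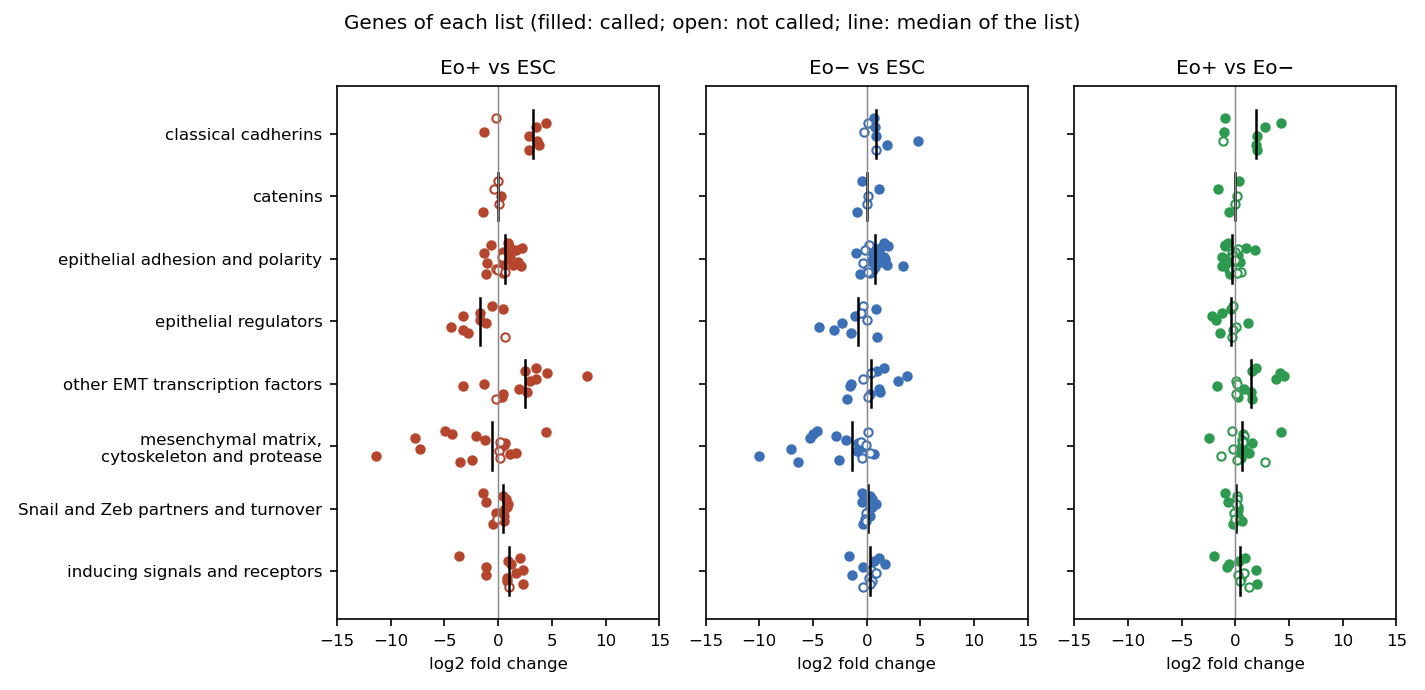
Log2 fold change of each tested gene of 8 gene lists in the 3 comparisons, with filled points for called genes, open points for the rest and a line at the list's median. Against ESC the mesenchymal list has a long tail to the left (S100a4, Lox and Col3a1, which passed the filter through ESC alone, where they are high). Between the fractions the median of that list is 0.64.

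ESC were grown on feeders, and 17 fibroblast markers, 4 of them also in the mesenchymal list, moved with the groups. Their summed level was 364, 160, 266 and 141 CPM in ESC replicates 1, 2, 5 and 6, 36.4 to 48.3 CPM in Eo− and 46.6 to 87.8 CPM in Eo+. Of 15 tested, 14 were lower and 1 (Pdgfrb) higher in Eo+ than in ESC, and 13 were lower and 1 higher in Eo− than in ESC. Of these 15, 6 passed the filter through ESC alone, which favours a lower value in the fractions. Of the other 9, 8 were lower and 1 higher in Eo+ than in ESC, and 7 lower and 1 higher in Eo− than in ESC. Of the 17, 5 had a mean under 1 CPM in ESC, 10 in Eo− and 9 in Eo+, and 1 was at 0 in all libraries of each fraction. Vim, Fn1, Zeb1, Snai2, Twist1 and Cdh2 are made by fibroblasts as well. In ESC, replicates 1 and 5 had the highest fibroblast sums and also the highest Vim, Snai2, Cdh2, Zeb2 and Twist1, and replicate 6 had the lowest of the fibroblast sum, Vim, Snai1, Snai2, Zeb1, Zeb2, Twist1 and Cdh2. Fn1 and Zeb1 did not share this order, since replicate 5 had the lowest Fn1 (635 CPM) and less Zeb1 (9.27 CPM) than replicate 2 (9.67 CPM). The nascent mesoderm sum was likewise highest in ESC replicates 5 and 1 and lowest in 6, at 126, 113, 234 and 51.2 CPM in replicates 1, 2, 5 and 6. The part of the feeders or of differentiating cells in the differences from ESC was not tested. Between the fractions, 2 of the 15 were higher and 4 lower in Eo+. With the replicate block over both fractions alone these counts were 5 and 5, beside 57.9% of all loci. Fbln2 (26.0 against 2.89 CPM) and Pdgfrb (11.5 against 4.63 CPM) were higher in Eo+ than in Eo−. Among the lower were Thy1 (7.49 against 21.3 CPM) and Loxl1 (1.16 against 2.31 CPM).

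**Figure D5:**
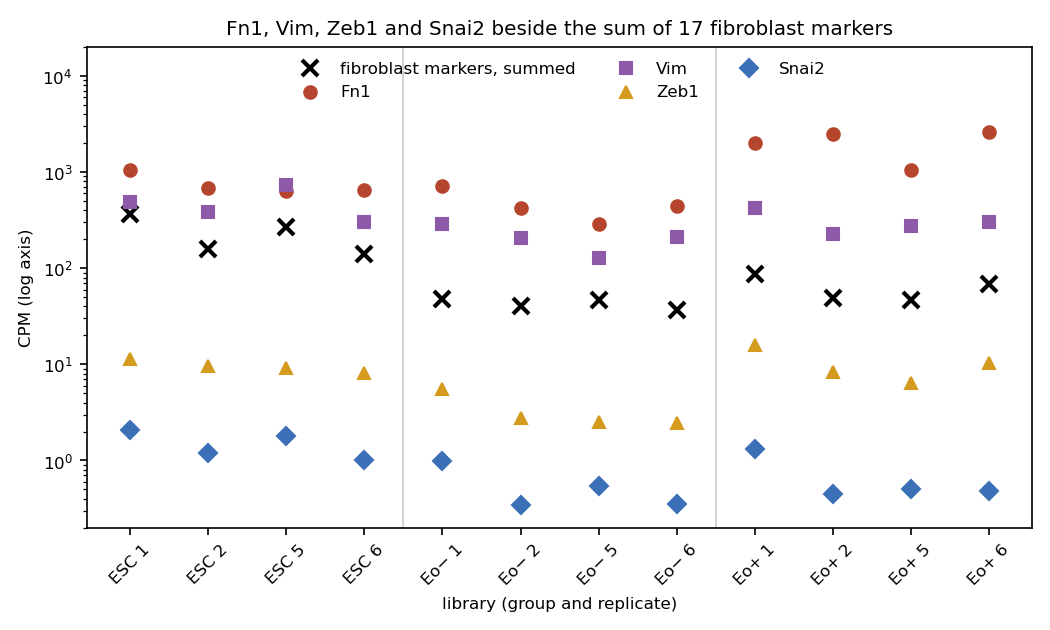
Fn1, Vim, Zeb1 and Snai2 in CPM (log axis) in each library beside the sum of 17 fibroblast markers (crosses). The crosses are highest in the 4 ESC libraries (141 to 364 CPM) and at most 87.8 CPM in the sorted fractions, while Fn1 has its highest mean in Eo+, where replicate 5 (1039 CPM) lies just under ESC replicate 1 (1055 CPM).

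Of 12 partners and turnover factors of Snail and Zeb proteins, 7 were higher and 4 lower in Eo+ than in ESC, 6 and 3 in Eo− than in ESC, and 4 and 3 in Eo+ than in Eo− (1 and 2 without Eo− replicate 2, and with no filter). With at least a 2-fold change, 0 were higher and 2 lower in Eo+ than in ESC, and 0 were called in either of the other comparisons. Epb41l5, needed for EMT at gastrulation, rose from 28.9 CPM in ESC to 51.5 CPM in Eo− and 53.0 CPM in Eo+. Fbxl14, an E3 ligase adaptor for Snail proteins, rose from 61.6 to 108 CPM in Eo+, and Ctbp1, a corepressor, from 94.0 CPM to 137 CPM in Eo− and 158 CPM in Eo+. Ajuba, a LIM corepressor of Snai1, fell from 201 CPM in ESC to 150 CPM in Eo− and 77.9 CPM in Eo+. The locus of Ctbp2 was at 336, 246 and 155 CPM in ESC, Eo− and Eo+, but it also holds Fgfr2, so its counts cannot be split. The counts of the list include this locus as lower in each comparison, and from ESC to Eo+ also at the 2-fold criterion (-1.13 ± 0.07). Rcor1 (43.1 against 27.8 CPM) and Gsk3b (65.8 against 54.8 CPM), a kinase that marks Snai1 for breakdown, were higher in Eo+ than in Eo−.

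Of 12 tested ligands and receptors that induce EMT, 8 were higher and 3 lower in Eo+ than in ESC, 3 and 3 in Eo− than in ESC, and 5 and 3 in Eo+ than in Eo− (3 and 2 without Eo− replicate 5, and 2 and 1 with at least a 2-fold change). Wnt3, a ligand needed for the primitive streak, was at 15.3 CPM in ESC, 18.1 CPM in Eo− and 70.7 CPM in Eo+ (Eo+ over Eo− 2.00 ± 0.32, limma adjusted p = 0.000199), and Tgfb1 at 16.2, 21.6 and 79.8 CPM. Fgf4 fell from 108 CPM in ESC to 34.3 CPM in Eo− and 9.91 CPM in Eo+, and Nodal was at 103, 80.5 and 47.8 CPM. The receptors Met (4.26 CPM in ESC, 14.0 CPM in Eo− and 10.1 CPM in Eo+) and Fgfr1 (73.3, 114 and 144 CPM) were higher than in ESC in both fractions, and the ligand Tgfb3 (2.71, 1.05 and 1.21 CPM) was lower in both.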

How the data were processed

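The authors aligned paired reads to mm10 with STAR, assembled transcripts with Cufflinks 2.2.1 and used HTSeq 0.6.1 to count reads over each merged locus. The deposited raw counts are whole numbers without scaling; a deposited CPM table and 0 columns of other samples were left unused. Loci were matched to genes through the deposited transcript annotation, and FPKM was computed from counts and summed exon length. Loci of protein-coding genes, lncRNAs and non-annotated transcripts with a mean FPKM over 0.1 in at least 1 group were tested (17944 of 80012). The main test was limma 3.58.1 (voom, TMM factors from edgeR 4.0.16, R 4.3.3) over all 12 libraries, two-sided, with Benjamini-Hochberg adjustment over all loci tested and calls at 0.05. CPM and FPKM use the TMM-scaled library sizes. Alternatives were edgeR's quasi-likelihood test, DESeq2 1.42.0, other scalings and filters, a replicate block and leaving out each library. Same-numbered Eo− and Eo+ libraries deviated together from their group means (correlations 0.634, 0.316, 0.348 and 0.355), and the study describes 4 differentiation sets. The main fit has no pairing, and fits with a replicate block are given as alternatives. Same-numbered ESC and sorted libraries did so less evenly (correlations -0.123 to 0.352). The replicate block over both fractions alone was chosen after seeing the data. The 10 genes and the lists were chosen with earlier results of these data known. Named list genes are the 2 largest called rises and falls per list and comparison that average 1 CPM or more in either group and whose libraries do not overlap, some of which are not reported here, and genes most like a member are the 3 of highest correlation. Snai3, Foxc2 and Cdh15 were not analysed here. P-values measure the spread between these libraries, and CPM floors cover counting error only.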

Additional observations from a re-analysis of the deposited data

Results flagged for a closer look

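In 7 of 30 sets of 4 libraries 1 library lay far from the other 3, by Dixon's 95% criterion, which chance alone meets in about 1 in 20 sets. Cdh1 (470 CPM) and Epcam (264 CPM) were both high in Eo+ replicate 5. Snai2 (1.32 CPM) was high in Eo+ replicate 1, and Zeb1 (5.55 CPM) and Zeb2 (10.5 CPM) were high in Eo− replicate 1. The summed blood and endothelium markers were also high there, summing to 186 CPM, whereas Eo− replicates 2, 5 and 6 held 25.4 to 43.8 CPM, and their part in these values was not tested. Snai1 (4.48 CPM) was low in ESC replicate 6, and Fn1 (1055 CPM) was high in ESC replicate 1.

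For 4 genes the changes from ESC had opposite signs in the sorted fractions, and the difference between them, tested as Eo+ against Eo− in the limma fit, was called. The log2 difference was -0.94 for Cdh1 and -0.72 for Epcam, and 1.63 for Zeb1 and 2.11 for Fn1. Of these, the change from ESC to Eo+ was called for Fn1 and not for Cdh1, Epcam or Zeb1. For Zeb1 that change was 0.02, and it ran from -0.23 to 0.22 over the alternatives, so its sign is not settled.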

How the results depend on the processing

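For the 10 genes, no called change turned its direction under any of the alternatives tried, and 595 of 640 values kept their direction and their side of the threshold. Some of the 640 could hardly change direction. The 2-fold criterion reuses the main log2 change, and some fits left out a library of the group outside the comparison. For the lists, the counts of called genes were recomputed but single genes were not followed, nor were the neighbouring loci. The count of genes called from ESC to Eo− dropped from 7 to 3 when a 2-fold change was required as well, which removed Cdh1, Cdh2, Epcam and Fn1, beside 28.4% of all loci in place of 62.4%. With 1 library left out, 6 to 8 genes were called from ESC to Eo+ (69.0% to 71.8% of all loci), 5 to 7 from ESC to Eo− (57.3% to 63.2%) and 8 to 9 between the fractions (41.5% to 49.3%). Fn1 from ESC to Eo− was not called with edgeR (-0.70, adjusted p = 0.0533), library totals (-0.67, adjusted p = 0.0717) or no filter (-0.76, adjusted p = 0.104). The number block over all 12 libraries called Zeb2 from ESC to Eo− (0.59, adjusted p = 0.0318), a comparison in which some same-numbered libraries deviated in opposite directions (correlations -0.123 to 0.352). That block changed no other call of the 10 genes and left Vim between the fractions uncalled (0.58, adjusted p = 0.0821). The replicate block over both fractions alone, chosen after seeing the data, changed the call of Vim (0.57, adjusted p = 0.00795) and of no other gene. Values that were not called changed sign for Zeb1 from ESC to Eo+ (main value 0.02), at -0.03 with DESeq2's size factors, -0.05 with the filter of 1 CPM in at least 4 libraries, -0.04 with no filter and -0.23 to 0.22 with 1 library left out. With 1 library left out this also happened for Twist1 from ESC to Eo− (-0.05 to 0.36) and Snai2 between the fractions (-0.09 to 0.63). No scaling moved the median of all loci by over 0.1. Depth does not limit these genes, all of which were far above 3 counts in every library.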
